A study of Mus musculus with 54 samples.

Results

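The emerin add-back line (+EMD) was compared with wildtype H2K myogenic progenitors at day 0, the time at which the medium is changed to start differentiation. The comparison was chosen by its table, which holds these groups and no other, and it takes in 6 of the 54 libraries of the series, 3 labelled replicates of each group. H2K myogenic progenitors are mouse muscle precursor cells that grow conditionally in medium with γ-interferon and fuse into myotubes when serum and interferon are withdrawn. The +EMD cells are EMD-/y progenitors, which lack emerin, that were transduced with a lentivirus carrying wildtype emerin and kept in puromycin. The wildtype cells came from wildtype mice, not from EMD-/y mice, and were neither transduced nor selected. Genotype, line of origin, transduction, and selection therefore cannot be told apart in this comparison. Cells of both groups stood on gelatin overnight in proliferative medium with 20 units/mL γ-interferon before RNA was taken. Wildtype cells were seeded at 232000 cells per well, and 297000 is given for the vector control and the mutant lines, while the density of +EMD in these plates is not given in the sources used here. Whether the 3 replicates were separate cultures is not stated for each library. The methods give 3 technical replicates for each of 2 biological replicates.

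Emerin is a LEM-domain protein of the inner nuclear membrane that binds lamins, the DNA-bridging protein Banf1, and chromatin regulators such as histone deacetylase 3. Its loss causes X-linked Emery-Dreifuss muscular dystrophy. Myogenic progenitors move from Pax7 and Myf5, which mark the progenitor state, through Myod1 to Myog and Mef2c, after which sarcomere genes are switched on. An add-back line is made to ask whether returning the protein returns a null cell to the wildtype state, and at day 0 that question is put to cells that have not yet been told to differentiate.

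Each gene has 1 value per group, the authors' normalized read level over the 3 libraries, so no spread between replicates, standard deviation, or test can be given. A difference is log2 of the +EMD level plus 1 over the wildtype level plus 1. Of 17352 genes listed, 13005 with an average of at least 10 over the 2 groups were compared, and a gene was called when it differed by at least 2-fold. Reading depth limits this by counting alone to a standard error of about 0.37 on the log2 scale at a level of 10, 0.12 at 100, and 0.037 at 1000. Spread between cultures comes on top and is unknown. The levels summed over genes, in units of 1e+06 normalized reads, to 18.3 in wildtype and 18.5 in +EMD.

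At day 0, 2077 genes were called, which is 16% of those compared. Of these, 761 were higher in +EMD than in wildtype progenitors (5.85%) and 1316 were lower (10.1%). The median difference over all genes was -0.00046, and the middle 50% of genes lay between -0.38 and 0.32. The median called gene was 2.79-fold higher or 3.24-fold lower. Calls were most frequent among weakly read genes. They made up 40.3% of the 2553 genes with an average from 10 to 100, 13.2% of the 6085 genes from 100 to 1000, and 5.63% of the 4367 genes above that.

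**Figure D1:**
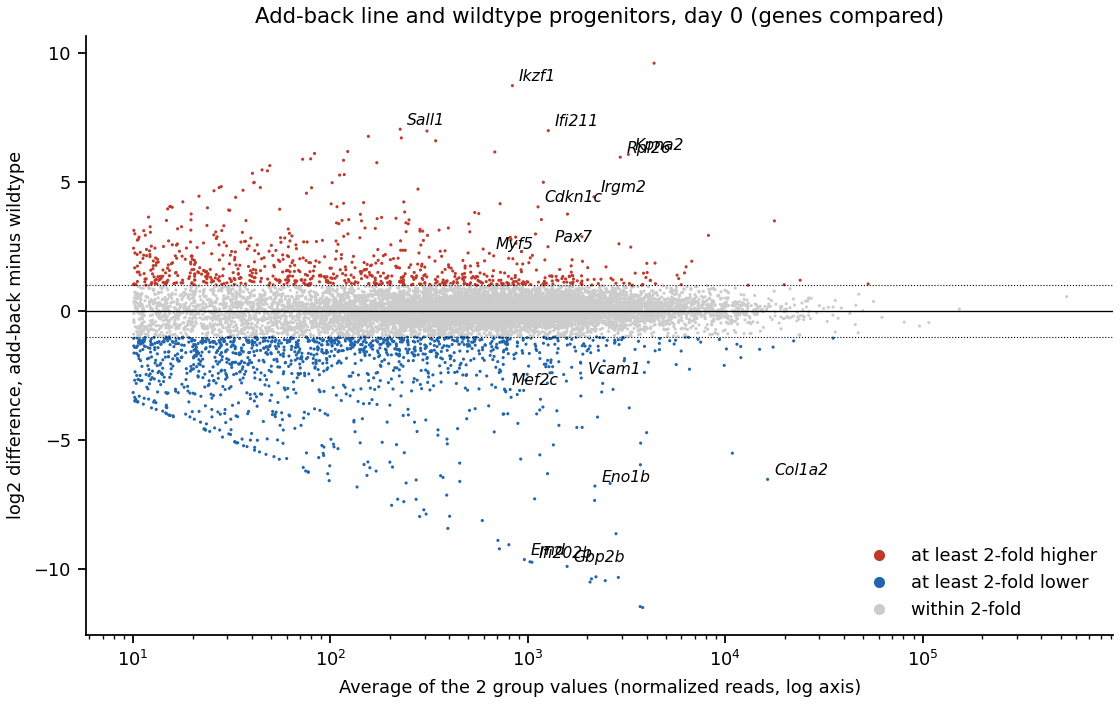
Each point is 1 of the 13005 genes compared, placed by the average of the 2 group levels (normalized reads, log axis) and by the log2 difference of the add-back line (+EMD) from wildtype progenitors at day 0. The 1316 genes at least 2-fold lower (blue) outnumber the 761 at least 2-fold higher (red), and Emd is among the lowest points.

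The libraries labelled +EMD held almost no reads of mouse Emd (chrX:74254674-74261563, GRCm38). The Emd level was 1919 in wildtype and 1.42 in +EMD. In the table that compares EMD-/y with the same wildtype libraries, the EMD-/y level was 3.52. The count of mouse Emd was thus near 0 in both lines and does not show the emerin that the virus carries. The species and untranslated parts of the viral emerin sequence are not given in the sources used here, so its transcript cannot be read from this table. The study examined emerin protein in its lines by Western blot, which is not analysed here.

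The other genes of the nuclear lamina and of the LEM-domain family were within 2-fold, 17 of the 18 compared. The median of the list was -0.022 against -0.00046 for all genes. Lmna, which encodes lamin A and C, was at 26057 in wildtype and 20057 in +EMD, a difference of -0.38. Both B-type lamins were slightly higher, Lmnb1 by 0.51 and Lmnb2 by 0.64 on the log2 scale. Banf1 was at 1869 and 2689, and Lbr, the lamin B receptor, at 1343 and 1898. The LEM-domain relatives of emerin differed by 0.40 or less in size, with Lemd2 at 0.00, Lemd3 at -0.04, Tmpo at -0.01, and Ankle2 at 0.40. Of the remaining members, Tmem43, Zmpste24, Nemp1, Gmcl1, Tor1aip1, and Tor1a were lower by between 0.03 and 0.46, and Tmem201 and Tor1aip2 were higher by 0.34 and 0.10. None of the 5 LINC complex genes compared, which tie the nucleus to the cytoskeleton, was called. Syne2 (nesprin-2) came closest at 0.89, followed by Syne1 at -0.58, Sun1 at 0.31, Sun2 at -0.16, and Syne3 at 0.03, while Syne4 stood at 1.83 and 4.19 and was not compared. None of the 16 histone deacetylases and NCoR corepressors was called, and Hdac3 differed by -0.10.

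Most of the genes with the largest differences were near or under a level of 10 in 1 of the groups, although Col1a2, Kpna2, Rpl26, and Eno1b were well above it in both. Among genes with an average of at least 100 and an ordinary symbol, the 12 furthest up were Ikzf1, Sall1, Ifi211, Mndal, Dmrt3, Cldn34c1, Myo7a, Lbx1, Eif2s3y, Kpna2, Rpl26, and Klhl29. Ikzf1 (Ikaros, chr11:11684962-11772930) is a zinc finger factor of lymphocyte development, and its level was 2.91 in wildtype and 1667 in +EMD. The developmental factors Sall1, Dmrt3, and Lbx1 were between 1.84 and 2.39 in wildtype and at 449, 309, and 242 in +EMD. Lbx1 is a homeobox factor of migrating limb muscle precursors. Mndal and Ifi211, of the interferon-inducible p200 family, were at 3.87 and 18.8 in wildtype and at 613 and 2521 in +EMD. The nuclear import receptor Kpna2 was at 93.7 and 6369, the ribosomal protein gene Rpl26 at 91.7 and 5787, and the Y-linked translation factor Eif2s3y at 17.7 and 1343. Near-identical gene models exist for Kpna2, Rpl26, Ifi211, and Cldn34c1, so their levels are uncertain. A single gene left out by its symbol lay further up than Klhl29, the last of the 12.

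The 12 furthest down were Gbp2b, Ifi202b, Emd, Nmral1, Hs6st2, Efemp1, Tcfl5, Eno1b, Adamts2, Col1a2, H2-Q1, and Ndn. Gbp2b (chr3:142594816-142619179), an interferon-inducible GTPase, was at 3159 in wildtype and 2.32 in +EMD, and Ifi202b at 2095 and 1.46. Col1a2 (chr6:4505618-4541543), the second chain of type I collagen, was at 32446 and 352, which is 92.0-fold lower. Adamts2, which trims the ends of fibrillar procollagens, was at 896 and 8.23. Hs6st2, a heparan sulfate sulfotransferase, was at 2153 and 12.9, and Efemp1, an extracellular matrix glycoprotein, at 772 and 4.5. The imprinted growth regulator Ndn was at 715 and 7.59, and the NAD(P)-sensing protein gene Nmral1 at 541 and 2.45. Eno1b was at 4333 and 38.4, but it is nearly identical to Eno1 and its level is uncertain. A further 25 genes left out by their symbol, mostly models predicted by the sequencing provider, lay further down than Ndn, the last of these 12.

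Most of these genes also stood far from wildtype in EMD-/y cells, in the same direction, and others did not. The comparison of EMD-/y with the same wildtype libraries shows this side by side. In EMD-/y, Gbp2b was at 4.76, Ifi202b at 2.70, H2-Q1 at 4.59, and Eno1b at 21.8, all far below wildtype, as in +EMD. Eif2s3y was at 1572 there, Kpna2 at 6560, Rpl26 at 7637, Mndal at 1178, and Ifi211 at 2960, all far above wildtype. Myo7a was at 687, Cldn34c1 at 229, Ikzf1 at 223, Lbx1 at 112, Sall1 at 96.2, and Klhl29 at 91.0, also far above wildtype. Efemp1 at 29.7 and Tcfl5 at 6.60 were far below wildtype in EMD-/y. Others were near wildtype in EMD-/y, with Col1a2 at 20669, Adamts2 at 865, Hs6st2 at 1792, Nmral1 at 420, Ndn at 883, and Dmrt3 at 2.98. The wildtype libraries are shared by both comparisons, and the difference between +EMD and EMD-/y was not tested.

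**Figure D2:**
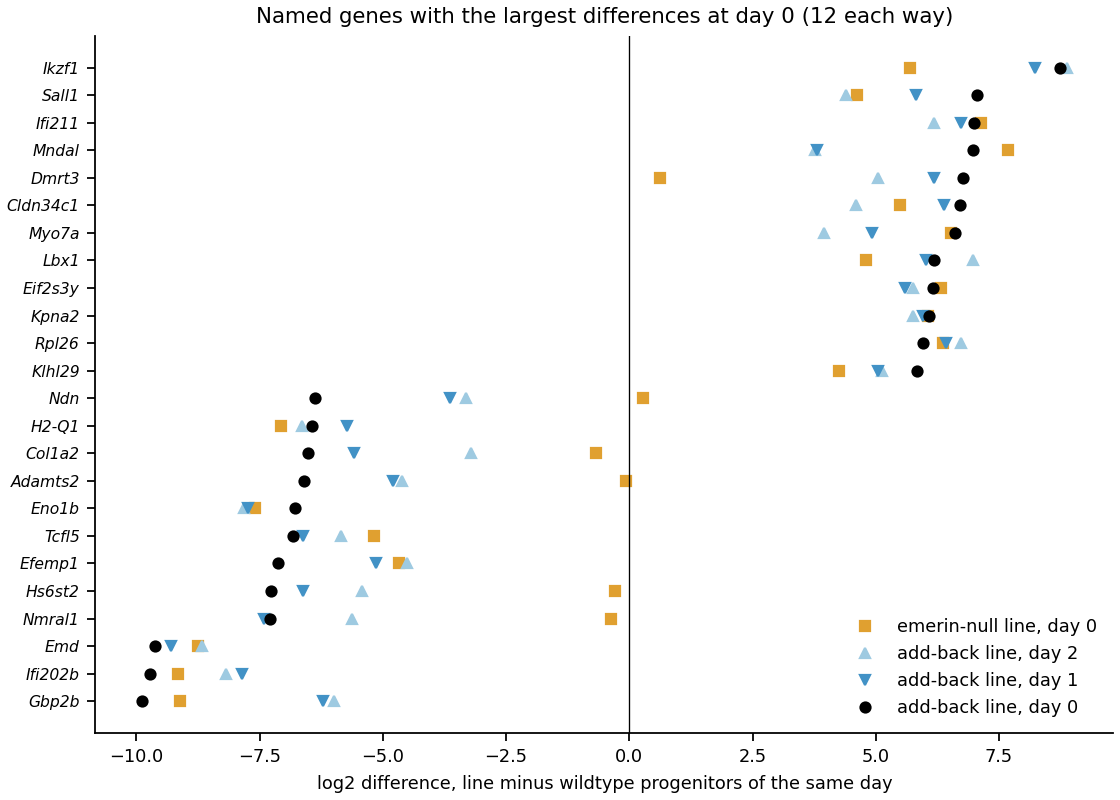
The 24 named genes with the largest differences are plotted by their log2 difference from wildtype progenitors of the same day, for the add-back line (+EMD) at days 0, 1, and 2 and for the emerin-null line (EMD-/y) at day 0. All 24 stay on the same side of 0 on the 3 days in +EMD, whereas the EMD-/y squares of Ndn, Adamts2, Hs6st2, Nmral1, Col1a2, and Dmrt3 lie near 0.

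Libraries of the same lines from days 1 and 2 of differentiation show how far the day 0 differences are found outside the day 0 libraries. Of the 761 genes higher at day 0, 447 (58.7%) were also at least 2-fold higher at day 1, against 8.55% of all genes compared. Of the 1316 lower genes, 784 (59.6%) were at least 2-fold lower at day 1, against 9.45%. At day 2 the numbers were 417 of the higher genes (54.8%, against 9.7%) and 563 of the lower genes (42.8%, against 6.65%). Few had crossed over to a 2-fold difference the other way. These were 30 higher and 58 lower genes at day 1, and 10 and 46 at day 2. On all 3 days, 335 of the higher and 500 of the lower genes stood at least 2-fold from wildtype in the same direction, among them all 24 genes in the plot of the largest differences. The libraries of the later days are separate but come from the same lines.

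The +EMD cells read as myogenic. All 10 myogenic markers were at 223 or more in both groups, and 9 of the 10 were higher in +EMD by some amount, with a median of 0.42. Desmin (Des) was at 15117 in wildtype and 15689 in +EMD, M-cadherin (Cdh15) at 3328 and 4978, Ncam1 at 6085 and 6725, Itga7 at 5097 and 6694, and Met at 3557 and 4843. Vcam1, an adhesion molecule of activated progenitors, was the exception at 3202 and 529.

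Early myogenic factors stood higher in +EMD. Pax7 (chr4:139737059-139833530), the paired-box factor of satellite cells, was at 381 in wildtype and 2148 in +EMD, which is 5.63-fold. Myf5 (chr10:107482908-107486927) was at 223 and 1054, or 4.71-fold. Of the 18 satellite cell and progenitor factors compared, 3 were called higher (16.7%, against 5.85% of all genes), namely Lbx1, Pax7, and Six4. Only Vcam1 was called lower (5.56%, against 10.1%), and the median was 0.38. Six4 sat near the threshold, with a difference of 1.03. Myod1 and Myog, the determination and commitment factors, were within 2-fold at 0.48 and 0.29. Mef2c (chr13:83504017-83667079), which acts with them on muscle promoters, was 8.14-fold lower, at 1358 and 166. Pax7 stayed higher at days 1 and 2, by 3.77 and 3.73 on the log2 scale, Myf5 by 2.09 and 1.78, and Mef2c stayed lower by 4.5 and 1.93. In EMD-/y cells at day 0, Pax7 differed by 1.21, Myf5 by 0.55, and Mef2c by 0.88. Mef2c was thus higher than wildtype in the null line and lower in +EMD. In the line whose emerin lacks a short stretch of residues, Mef2c was also below wildtype at day 0, with a difference of -1.90. The remaining mutant lines stood above wildtype, with differences of 0.61 and 0.36.

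Genes of the Id, Hey, and related repressor families lay on the higher side, most of them known to oppose myogenic factors, although Hes6 promotes differentiation. Of 14 Id, Hey, Hes, Twist, Snai, and Bhlhe genes, 11 were above wildtype by some amount and 3 were called higher (21.4%, against 5.85% of all genes), none lower, with a median of 0.55. Hey1, a Notch-responsive repressor, was at 87.2 and 917. Id2, which binds the partners of Myod1, was at 1904 and 6913, and its log2 differences were 2.34 and 2.89 on the later days. Twist2 was at 250 and 507.

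Sarcomere genes were lower. Of 36 compared, 13 were called lower (36.1%, against 10.1% of all genes) and none higher, 34 lay below wildtype by some amount, and the median was -0.84 against -0.00046 for all genes. Actn2 (alpha-actinin 2 of the Z-disc) was at 1216 in wildtype and 156 in +EMD, and the atrial and embryonic light chain gene Myl4 at 2229 and 425. Myh2 was at 112 and 3.61, and the titin cap gene Tcap at 53 and 5.56. Embryonic myosin heavy chain (Myh3), chosen after its value was seen, was at 9121 and 2167. All 13 were also at least 2-fold lower at day 1 and 7 of them at day 2, where the list medians were -1.52 and -0.76. In EMD-/y cells the same list had a median of 0.79 at day 0, on the other side of wildtype. Day 0 wildtype cultures already carry reads of these genes, and whether this comes from a few differentiated cells or from low levels in many cells cannot be told apart in bulk RNA, where fewer cells of a type and less RNA per cell look the same.

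Of 17 excitation-contraction and synapse genes, 3 were called lower (17.6%, against 10.1% of all genes), the calcium channel Cacna1s at 662 and 153, the calcium store protein Casq2 at 1335 and 371, and the fetal acetylcholine receptor subunit Chrng at 798 and 371. The median of these 17 genes was -0.13, and 8 of them lay above wildtype by some amount. Of 18 genes of the dystrophin-glycoprotein complex, 3 were called lower (16.7%), 8 lay above wildtype by some amount, and the median was -0.072. Dmd itself was at 53.7 in wildtype and 1.24 in +EMD, at 39.8 and 1.17 at day 1, and at 56.8 and 3.92 at day 2, whereas it was at 105 in EMD-/y at day 0. Among 17 fusion genes, 3 were called lower (17.6%) and 2 higher (11.8%, against 5.85% of all genes), with a median of -0.26. Cav3 (caveolin-3) was at 508 and 24.7, Cdh2 at 8914 and 3047, and Nfatc2 at 67.3 and 14. Mymx, a fusogen, was higher at 98.0 and 239, as was Elmo1 at 15.2 and 54.3.

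**Figure D3:**
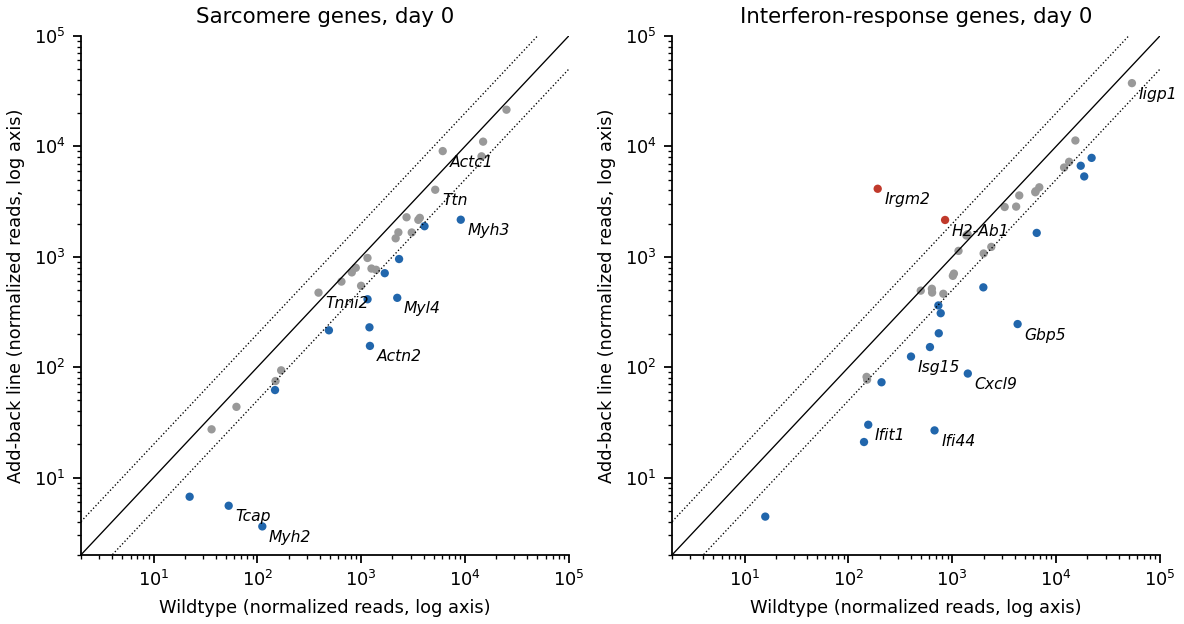
Each point is a gene of the sarcomere list (36 genes, left) or the interferon-response list (42 genes, right), placed by its level in wildtype and in the add-back line (+EMD) at day 0 in normalized reads, both on log axes. The solid line marks equal levels and the dotted lines 2-fold, and 13 sarcomere genes and 17 interferon-response genes lie below the lower dotted line.

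Cell cycle genes were close to wildtype at day 0. None of 22 cyclins, cyclin-dependent kinases, and E2F factors was called, with a median of 0.12. Among 30 mitosis genes the median was -0.083 and only securin (Pttg1) was called, at 1440 in wildtype and 261 in +EMD. Mki67, a proliferation marker, was at 10549 and 14402. Of 32 DNA replication genes, 25 lay above wildtype and the median was 0.32, but 9 of the 32 lie on chromosomes 8 and 16, which are described below. The only call was Mcm5 on chromosome 8 at 2253 and 4514, which sits at the threshold with a difference of 1.00, and centring each chromosome on its own median brought the list median to 0.16. Mcm5 was no longer called then, nor with both columns scaled to the same total. The groups parted on the following days. The median of the mitosis list was 0.84 at day 1 and 3.53 at day 2, and that of the DNA replication list 1.30 and 2.08.

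The CDK inhibitor Cdkn1c (p57), an imprinted gene that holds cells out of the cycle, was at 128 in wildtype and 2124 in +EMD, and it stood at a similar distance in EMD-/y, by 4.15 against 4.04 on the log2 scale. Cdkn2b was lower at 1035 and 452. Rb1 differed by -0.38 and Trp53 by 0.43. Of 23 genes of the p53 pathway, 4 were called lower (17.4%, against 10.1% of all genes) and none higher, with a median of -0.51. Fas was at 175 and 44.9, Trp53inp1 at 702 and 287, Gadd45g at 1751 and 834, and Eda2r at 895 and 437. Only Fas was also at least 2-fold lower at day 1 and at day 2.

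Interferon-response genes were lower as a list, in cells that grew in γ-interferon in both groups. γ-Interferon signals through Jak kinases to factors that bind GAS motifs, while type I interferon acts mainly through ISRE motifs. Of 42 interferon-response genes compared, 17 were called lower (40.5%, against 10.1% of all genes) and 2 higher, 38 lay below wildtype by some amount, and the median was -0.89. Promoter letters show which of these genes carry the motifs that such factors bind, and 4 windows are printed for genes on both sides of wildtype. The windows are from RefSeq (GRCm38.p6), run 5′ to 3′ on the strand of the gene, and capitals mark each GAS (TTCNNNGAA) and ISRE (GAAANNGAAA, or TTTCNNTTTC on the other strand), with no overlap between the motifs shown.
Gbp5, chr3:142496862-142496910, plus strand: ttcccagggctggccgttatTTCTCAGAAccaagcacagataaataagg
Ifit3, chr19:34583353-34583436, plus strand: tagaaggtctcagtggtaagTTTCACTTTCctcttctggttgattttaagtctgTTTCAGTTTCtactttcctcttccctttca
Igtp, chr11:58199491-58199551, plus strand: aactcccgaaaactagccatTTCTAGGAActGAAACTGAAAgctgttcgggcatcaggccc
Irgm2, chr11:58214882-58214942, plus strand: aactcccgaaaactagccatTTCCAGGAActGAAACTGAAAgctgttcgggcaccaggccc

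Gbp5, a guanylate-binding protein with a GAS in its window, was at 4260 in wildtype and 246 in +EMD, and Ifit3, with 2 ISREs, at 141 and 21.0. Ifi44 was at 675 and 26.8, and the chemokine gene Cxcl9 at 1411 and 87.6. The windows of Igtp and Irgm2, immunity-related GTPase genes on chromosome 11, are the same at 59 of 61 positions and carry both motifs, yet the genes lay on opposite sides. Igtp, chosen after its value was seen, was at 21997 in wildtype and 7872 in +EMD. Irgm2 was at 191 and 4134. Its wildtype level is uncertain, since the same wildtype libraries stand at 840 in the EMD-/y table, and it was at 2.13 and 1314 at day 1 and at 143 and 1041 at day 2. The other higher gene was H2-Ab1, an MHC class II chain, at 852 and 2156.

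Of the 42 genes, 33 matched a promoter of 250 bases before to 50 after the gene start. An ISRE was found in 19 of these (57.6%) and a GAS in 11 (33.3%), against 3.72% and 8.15% of the 9836 genes compared that matched. Among the 15 matched interferon genes called lower, 11 held an ISRE and 4 a GAS, and among the 17 within 2-fold these were 7 and 6. Over all genes, an ISRE was in 7.0% of those called lower and 5.75% of those called higher, and a GAS in 8.54% and 8.42%. Receptor and kinase genes of the pathway, chosen after their values were seen, were closer to wildtype, with Ifngr1 at 497 and 494 and Jak1 at 4419 and 3595. Of the 17 lower genes, 13 were at least 2-fold lower at day 1 and 13 at day 2. The list medians were -0.52 and -0.93 on those days, and -0.25 in EMD-/y at day 0. Of the 42 genes, 5 lie on chromosome 3, whose genes were lower as a whole, and 6 on chromosomes 8 and 16, whose genes were higher. Centred by chromosome, the list median was -0.89.

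Genes of MHC class I and antigen processing were within 2-fold in 18 of 20 cases, with a median of -0.49. The called ones, both lower, made up 10% of the list, near the 10.1% of all genes called lower. They were Tap2, a subunit of the peptide transporter, at 4122 and 1676, and the immunoproteasome subunit Psmb9 at 3470 and 1580. Neither was 2-fold lower at day 1 or day 2. Cytokines and chemokines had a median of -1.34, with 11 of 18 called lower (61.1%, against 10.1% of all genes) and 1 higher. Ccl2, which draws monocytes, was at 159 and 32.3, the alarmin Il33 at 84.5 and 15.7, its receptor Il1rl1 at 291 and 23.5, and Cxcl5 at 38.3 and 1.63. The osteoprotegerin gene Tnfrsf11b went the other way, from 2.91 to 58.1. Of the 11 lower genes, 5 were at least 2-fold lower at day 1 and 2 at day 2.

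**Figure D4:**
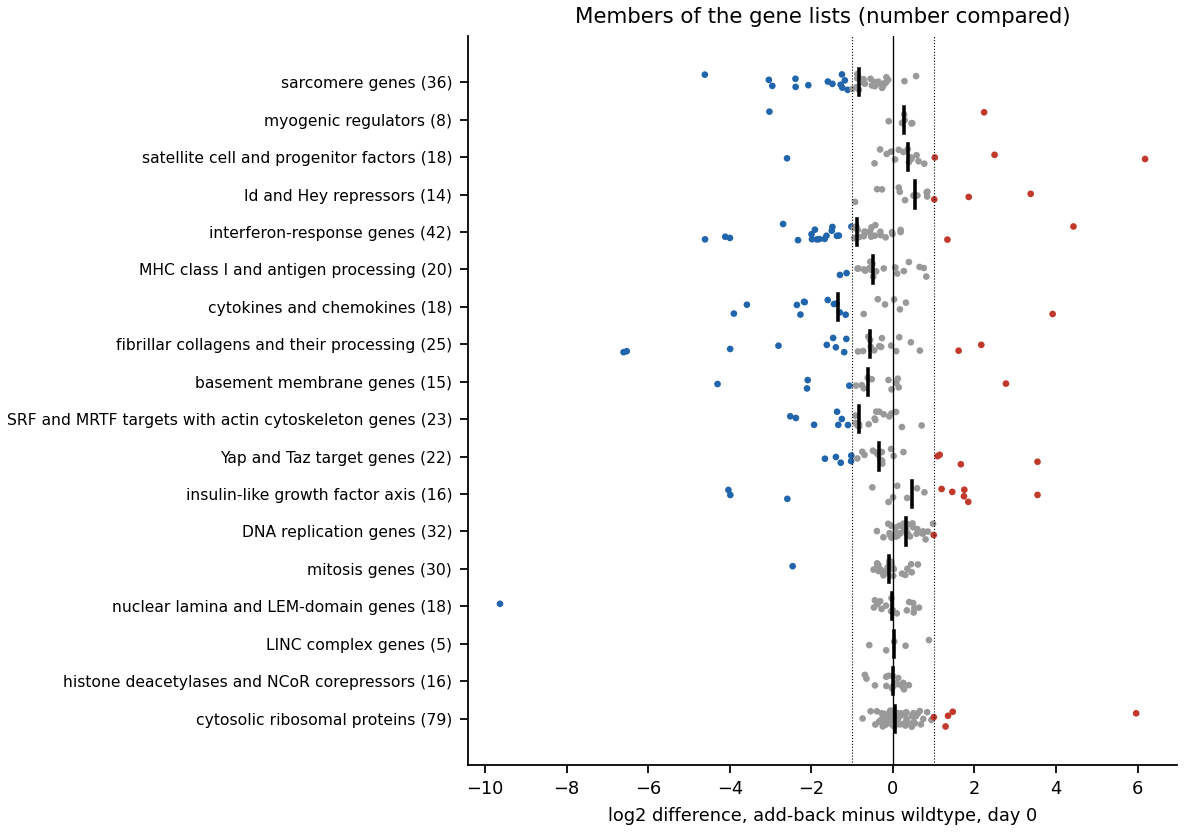
Each point is a list member compared at day 0, placed by its log2 difference of the add-back line (+EMD) from wildtype, with the list median as a black bar and dotted lines at 2-fold. Medians lie at -1.34 for cytokines and chemokines, -0.89 for interferon-response genes, and -0.84 for sarcomere genes, whereas the nuclear lamina, LINC complex, and histone deacetylase lists lie near 0.

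Extracellular matrix genes were called in both directions, and their shares stand beside 10.1% of all genes called lower and 5.85% called higher. Of 25 genes of the fibrillar collagens and their processing, 9 were called lower (36.0%) and 2 higher (8.0%), with a median of -0.56. Besides Col1a2 and Adamts2, Col1a1 was at 4192 in wildtype and 599 in +EMD and Col11a1 at 146 and 8.28. The genes for both chains of type I collagen were therefore lower, by 6.98-fold for Col1a1 and 92.0-fold for Col1a2, while in EMD-/y Col1a1 differed by 0.03. The higher genes were the lysyl oxidase Loxl1, at 715 and 2186, and Col2a1, at 3.48 and 19.1. Of 11 other collagens, 3 were lower (27.3%) and 2 higher (18.2%). Col8a1 was 22.8-fold lower at 3393 and 148, Col7a1 and Col25a1 were lower, and Col6a3 (433 and 1590) and Col8a2 (98.2 and 330) were higher.

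The basement membrane list had 4 lower (26.7%) and 1 higher (6.67%) of 15, with a median of -0.62. Col4a5 was at 251 and 11.8, the linker Nid2 at 16037 and 3728, the laminin chain Lama2, which muscle fibres rest on, at 1916 and 914, and Lama4 at 22.7 and 4.59. Lamb3, a chain of epithelial laminin, was higher at 209 and 1434. Matricellular and adhesive glycoproteins had 7 lower (29.2%) and 2 higher (8.33%) of 24, with Thbs2 at 1155 and 158, Thbs3 at 735 and 172, and Ccn5 at 97.6 and 18.3, against Sparcl1 at 40.3 and 187 and Reln at 9.75 and 47.3. Of 14 proteoglycans and syndecans, 4 were lower (28.6%) and 1 higher (7.14%). The glypican Gpc4 was at 182 and 2.78 and the small proteoglycan Ogn at 3929 and 764, whereas Cspg4 (NG2) was at 75.7 and 1053.

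Of 24 matrix proteases and inhibitors, 7 were called lower (29.2%) and 1 higher (4.17%), 10 lay above wildtype by some amount, and the median was -0.21. The aggrecanases Adamts5 and Adamts4 were at 2217 and 167 and at 2176 and 413, and urokinase (Plau) at 5621 and 2177. The gelatinase Mmp2 was higher at 1797 and 3790, but it lies on chromosome 8, and it was no longer called once chromosomes were centred. Of 17 integrin subunits, 4 were lower (Itgb7, Itga10, Itga4, and Itgb3, 23.5%) and Itga11 was higher, at 55.2 and 292. Itga11 was below wildtype on the later days, at -1.17 and -1.16 on the log2 scale. Itga4, which pairs with Itgb1 or Itgb7 as a receptor for Vcam1, was at 1993 and 480. None of the lower integrin genes was 2-fold lower at day 2, when Itga4 differed by 0.28.

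Of 23 genes of the list of SRF and MRTF targets and actin cytoskeleton, which also holds those factors, 7 were called lower (30.4%, against 10.1% of all genes) and none higher, with a median of -0.83 at day 0, -0.48 at day 1, and 0.10 at day 2. Actg2 was at 1054 in wildtype and 183 in +EMD, Myl9 at 6533 and 1256, Fhl1 at 3861 and 1011, and Fhl2 at 1581 and 612. Only 1 of the 7, Fos, was still 2-fold lower at day 2, by 1.24 on the log2 scale. The Hippo effectors Yap1 and Wwtr1 differed by -0.09 and -0.19, and Amotl2 was the only one of 19 Hippo genes to be called, at 7806 and 3219. Of 22 Yap and Taz target genes, 4 were called higher (18.2%) and 5 lower (22.7%), 16 lay below wildtype by some amount, and the median was -0.33. Igfbp3 and Rbms3 (230 and 732) were among the higher targets, and F3, the tissue factor gene, was lower at 531 and 167. At day 1, 1 of the 4 higher and 1 of the 5 lower targets were 2-fold the same way. At day 2 these were 2 and 0.

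Ligands and binding proteins of growth factor pathways were mixed. Of 16 genes of the insulin-like growth factor axis, 6 were higher (37.5%, against 5.85% of all genes) and 3 lower (18.8%, against 10.1%). Igf1 was at 132.6 and 446, and the binding proteins Igfbp3, Igfbp5, and Igfbp2 were at 184 and 2158, 1741 and 6274, and 758 and 2556. Igfbp7 was lower at 2086 and 131, as were the RNA-binding proteins Igf2bp1 (183 and 10.3) and Igf2bp3 (285 and 46.5). In TGF-β and BMP signalling, 8 of 30 genes were higher (26.7%) and 6 lower (20.0%). Bmp4 was at 192 and 1.45, the BMP family member Gdf6 at 121 and 12.5, and the myostatin antagonist Fst at 2606 and 889. In Wnt signalling 5 of 30 genes were higher (16.7%) and 7 lower (23.3%). The lower ones included the secreted inhibitors Sfrp2 (394 and 5.83) and Sfrp1 (1007 and 124) and the potentiator Rspo3 (118 and 6.12), and the higher ones the ligands Wnt5a (220 and 742) and Wnt10b (62.9 and 204).

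Of 27 ATF4 and unfolded-protein genes, 5 were higher (18.5%, against 5.85% of all genes) and none lower, with a median of 0.28. Among them were the cystine carrier Slc7a11 at 172 and 824 and the amino acid carrier Slc7a5 at 3150 and 8262. None of the 5 was 2-fold higher at day 1, when Slc7a11 differed by -1.63. Slc7a5 and Gdf15, with differences of 1.39 and 1.30, lie on chromosome 8, whose median was 0.55. Of 23 NRF2 antioxidant genes, 3 were higher (13.0%) and 4 lower (17.4%, against 10.1%), with glutathione reductase (Gsr, chromosome 8) at 786 and 2996 and the epoxide hydrolase Ephx1 at 1196 and 246. Of 79 ribosomal protein genes, 5 were higher (6.33%) and none lower, with a median of 0.046. Besides Rpl26, these include Rpl35a at 1858 and 5143, which lies on chromosome 16, whose median was 0.52. They also include Rps13 and Rps29, which were below wildtype at day 1 (-2.36 and -1.37). Among 34 respiratory chain subunits, Ndufa4 was the only call, at 1749 and 837. Of 20 hypoxia genes, 3 were lower (15%), including the peptide hormone genes Adm (62.1 and 14.2) and Apln (328 and 163).

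Markers of other cell types differed by list, and their shares stand beside 10.1% of all genes called lower and 5.85% called higher. All 11 fibroblast and fibro-adipogenic markers summed to 7739 in wildtype and 2442 in +EMD, and most of this was Ly6a, also found on myogenic cells, at 4876 and 1279, and Gsn at 2711 and 1124. Of 6 compared, 5 were called lower (83.3%). Dcn, a defining marker, was at 25.5 and 2.99 and Mfap5 at 45.7 and 4.0. Of the 11, 3 were under 10 in both groups, and none of the 5 called was 2-fold lower at day 2. The 6 endothelial markers ranged from 0.158 to 16 in wildtype and from 0.184 to 12.8 in +EMD, and the 5 macrophage and leukocyte markers from 0.158 to 14.1 and from 0.184 to 12.8. Of 7 smooth muscle and pericyte markers compared, Cspg4, Abcc9 (25.9 and 103), and Mcam (361 and 789) were called higher (42.9%). None was called lower, although 3 lay below wildtype by some amount. Of 4 chondrocyte and bone markers compared, Sp7 (75.5 and 391) and Col2a1 were called higher (50%). All 3 adipocyte markers compared were called, the lipase gene Lpl at 1128 and 248, Cebpa at 1087 and 473, and Pparg, which was higher, at 51 and 108. Of 4 Schwann and neural markers compared, Mbp was lower at 32.9 and 10.04, while Tubb3 was within 2-fold at 1015 and 1811. Collagen and fibroblast marker genes were thus both lower in +EMD, and the part of any contaminating fibroblasts in the matrix genes was not tested. Of the Y-linked genes, Ddx3y, Kdm5d, and Uty differed by 0.41, -0.09, and -0.09, Usp9y was at 0.391 and 0.260, and only Eif2s3y was called.

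The differences were not spread evenly over the genome. Among genes with an average of at least 100, the median difference was 0.55 for the 571 genes of chromosome 8 and 0.52 for the 331 genes of chromosome 16, which are 1.46-fold and 1.43-fold. It was -0.29 for the 507 genes of chromosome 3, which is 0.816-fold. The medians of the other 17 chromosomes lay between -0.089 and 0.058. On chromosome 8, 88.8% of the genes were above wildtype by some amount, on chromosome 16 82.8%, and on chromosome 3 24.1%. The shift ran along the whole length. In segments of 20 megabases the medians lay between 0.38 and 0.62 over the 7 segments of chromosome 8, between 0.37 and 0.57 over the 5 of chromosome 16, and between -0.48 and -0.13 over the 8 of chromosome 3, with at least 16 genes in each.

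The pattern stood in the separate libraries of the later days. The medians of chromosome 8 were 0.49 at day 1 and 0.47 at day 2, those of chromosome 16 were 0.46 and 0.47, and those of chromosome 3 were -0.22 and -0.22, while the other chromosomes lay between -0.17 and 0.057 at day 1 and between -0.077 and 0.065 at day 2. In EMD-/y at day 0 the medians of chromosomes 8, 16, and 3 were 0.083, 0.056, and -0.15, and the other chromosomes lay between -0.027 and 0.029. Calls were uneven as well. On chromosome 8, 90 of 681 genes compared were called higher (13.2%, against 5.85%) and 28 lower (4.11%, against 10.1%). On chromosome 16, 40 of 390 were higher (10.3%) and 17 lower (4.36%), and on chromosome 3, 16 of 600 were higher (2.67%) and 95 lower (15.8%). Chromosome X, with a median of -0.089, had the largest share of lower calls, 71 of 400 (17.75%), and 12 higher (3%). The number of copies of these chromosomes was not tested. When each gene was set against the median of its own chromosome, 587 genes were called higher and 1101 lower, out of 12248 genes with a known chromosome. Without centring, and with the provider's predicted genes left out, 654 were called higher and 1122 lower out of 12261.

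**Figure D5:**
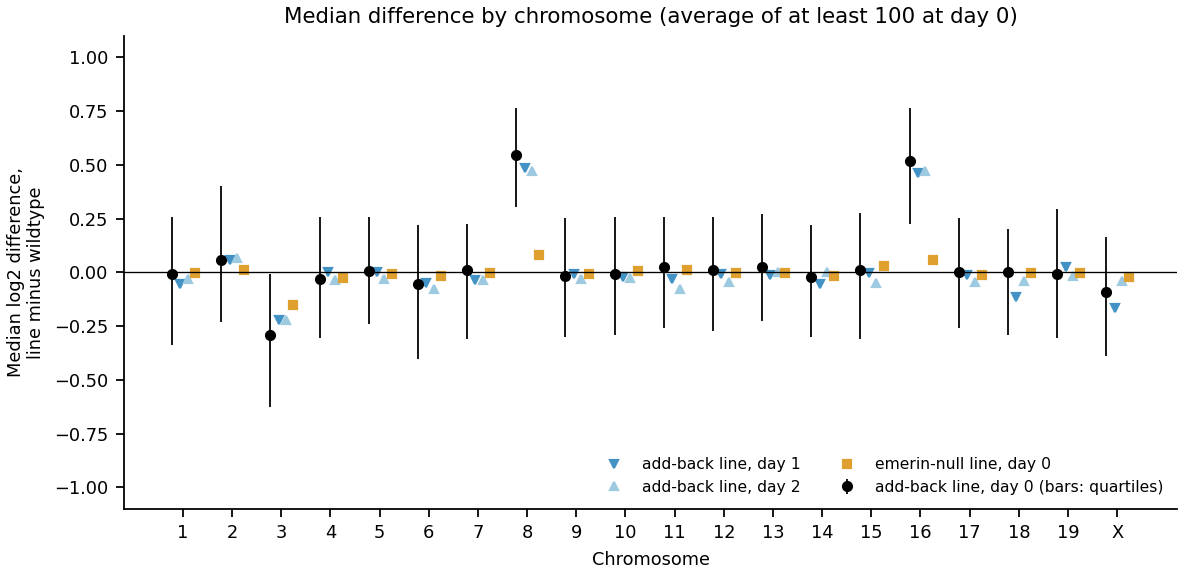
The median log2 difference from wildtype progenitors of the same day is given by chromosome for genes with an average of at least 100 at day 0, for the add-back line (+EMD) at days 0, 1, and 2 and the emerin-null line (EMD-/y) at day 0, with bars from the lower to the upper quartile for +EMD at day 0. Chromosomes 8 and 16 stand near 0.5 and chromosome 3 near -0.29 at day 0, and the other chromosomes lie between -0.089 and 0.058.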

How the data were processed

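Poly(A) RNA was sequenced with paired reads, and 6 libraries enter the comparison. Per the methods and the submitters' notes, the sequencing provider filtered reads with SOAPnuke, mapped them to mm10 with HISAT2, and compared groups with DESeq2. Counting tool and strand setting are not given in the sources used here. The deposited signal values are the authors' normalized read counts, 1 per gene and group, with 0 columns per sample. Depth per sample is therefore known only as size factors, which the steps between low values put at 0.972 to 1.03 over 6 libraries. For all 2047 genes with an average under 1 (100%), the average of both columns is a sum of whole reads within 0.000001. How such low averages are split between the groups was fitted, since a gene with 1 read in all has a value above 0 in both columns, so low-level differences are understated and levels under 10 are given with no fold in the text. The level of wildtype in the EMD-/y table differed from that used here by up to 0.019 on the log2 scale for 95% of genes with an average from 100 to 1000, and by up to 0.25 from 10 to 100. Further deposited columns hold the authors' fold changes, p-values, q-values, and calls, and were not used.

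A pseudocount of 1, a minimum average of 10, and a 2-fold threshold were applied, and no test was run. Gene IDs were matched to RefSeq symbols for 15795 of 17352 entries, and 1534 are genes predicted by the provider. The 48 gene lists and the genes named were chosen with earlier results of these data known. Named were the 12 largest differences each way among genes with an average of at least 100 and an ordinary symbol, up to 4 called genes each way in each list, all lamina, LINC, and Y-linked genes, and Hdac3, Yap1, Wwtr1, Rb1, Trp53, Myod1, Myf5, Myog, Pax7, and Mki67. Counts of list members are descriptions and not a test of the list. Of 203 named genes, 17 share at least 200 bases at 97% identity with another gene model (minimap2 2.31-r1302), and their levels are uncertain. These are Banf1, Cacna1s, Cdkn1c, Cldn34c1, Eno1b, Gsta1, Ifi211, Ifit3, Igf2bp3, Kpna2, Ltbp2, Mmp19, Rpl26, Rspo3, Sfrp2, Tcfl5, and Twist2. Without strand, overlapping genes cannot be told apart either. The computation was tested on simulated data and used Python 3.11.15, numpy 2.4.6, and pandas 2.3.3. The alternatives were other pseudocounts, minimums, thresholds, scalings, and centrings, and leaving out predicted genes. Some genes of the lists are counted but not reported by name here.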

Additional observations from a re-analysis of the deposited data

How the results depend on the processing

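No paired analysis was possible because the columns carry no replicate, and no replicate could be left out for the same reason. With an average of at least 50, 1346 genes were called at day 0, 508 higher and 838 lower, and 785 and 636 of them stood 2-fold in the same direction at days 1 and 2, against 2077, 761, 1316, 1231, and 980. At 1.5-fold these numbers were 4052, 1743, 2309, 2442, and 2082, and at 3-fold 1066, 340, 726, 639, and 515. Under a pseudocount of 5 or 0.1, no minimum, equal totals, centring on the median of all genes, predicted genes left out, and, added after seeing the data, centring by chromosome, each of the 5 counts stayed within 1.5 times, from 1688 to 2641 genes called, and the median stayed between -0.014 and 0.014. The sign of a named gene called at day 0 could not change under any of these, so its staying the same says nothing of robustness. Centring by chromosome was done on the 12248 genes with a known chromosome only. Predicted genes hold many of the calls. Of 744 compared, 40.5% were called, against 14.5% of the other 12261. Of the 2077 calls, 1029 have an average under 100, where counting error is largest, and the spread between cultures is unknown. Among the lists, centring by chromosome moved 6 of 96 counts of called members and 22 of 48 medians, and 61 of 201 named genes. No minimum moved 18 medians, an average of at least 50 moved 8 of 46, and a pseudocount of 5 moved 52 named genes.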

Other observations

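The chromosome medians of the other lines at day 0, each against the same wildtype libraries, were as follows for the genes used in +EMD. In the Δ95–99 line, whose emerin lacks a short stretch of residues, chromosome 8 stood at 0.45, chromosome 16 at 0.22, and chromosome 3 at -0.072. In S54F cells these were 0.096, 0.081, and -0.26, and chromosome 15 stood at 0.15. In Q133H cells they were -0.0039, 0.0046, and 0.28. The wildtype libraries are shared by all of these, and the number of copies was not tested in any line. Several named muscle genes that were lower in +EMD were also lower in the Δ95–99 line at day 0. Mef2c, Actn2, Myl4, Cav3, Tcap, and Dmd differed there by -1.90, -1.92, -1.97, -2.18, -2.24, and -2.77. In S54F cells the same genes differed by 0.61, -0.20, -0.28, -0.63, -0.64, and -0.31. In Q133H cells they differed by 0.36, -0.42, 0.37, -1.09, -1.19, and 0.96.

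The Y-linked gene Eif2s3y stood at 17.7 in wildtype progenitors, where Ddx3y, Kdm5d, and Uty were at 1261, 406, and 399, and the same 3 genes were at 1678, 382, and 374 in +EMD. The differences of Eif2s3y from wildtype were 6.10, 6.15, and 6.26 in S54F, Δ95–99, and Q133H cells, against 6.17 in +EMD.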
